A study of Mus musculus with 3 samples.

Results

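The Malat+_T_cell cluster comprised 430 of the 20266 immune cells of the deposited scRNA-seq table, and its members were taken as all cells that carry this cluster name in the authors' annotation. They were compared with the 5236 cells of the clusters T_cell_1 (2375 cells), T_cell_2 (1664), T_cell_3 (1036) and T_cell_4 (161) of the same facility and compartment. The clusters were made from the genes of these same cells, so every difference between the members and the other T cells is a description and carries no p-value. Tests were run only on the kidney compartment, which the clustering did not use.

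All cells came from kidneys of healthy, untreated wild-type male C57BL/6J mice aged 10 weeks, from which the cortex and both zones of the medulla, outer (OM) and inner (IM), were dissected by hand, digested and sorted for live CD45+ cells. The same design was run at 3 facilities, which gave the Aachen, Bonn and Hamburg datasets, with an earlier droplet chemistry in Aachen. The labels list 1 sample per compartment, and the table names the facility of each cell, so the cells of 1 compartment of 1 facility were treated as 1 library (9 libraries) and the facilities as replicates. How many mice were pooled in a library was not used here, and facility, mice, chemistry and run cannot be told apart. The values are counts of unique molecular identifiers (UMIs) per gene and cell, and the libraries held between 2122809 (Aachen cortex) and 15267126 UMIs (Bonn cortex).

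Malat1 is a long noncoding RNA that stays in the nucleus, where it sits in the splicing-factor bodies called nuclear speckles, and it is among the most abundant RNAs of nearly every mouse cell. Messenger RNAs of ribosomal proteins and of the glycolytic and cytoskeletal proteins are by contrast largely cytoplasmic. Cd3e, the other marker of the cluster, encodes a subunit of the CD3 complex that carries the signal of the T cell receptor. The number of UMIs per cell and the mitochondrial share of UMIs are the measures usually consulted to judge the state of a cell in droplet data.

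The cluster was spread unevenly over the datasets. Hamburg contributed 333 members (77.4%), Bonn 58 and Aachen 39. Members made up 13.7% of the T cells in Hamburg (95% exact binomial interval 12.4 to 15.2), 3.49% in Bonn (2.66 to 4.49) and 2.47% in Aachen (1.76 to 3.36). These intervals cover counting error of cells only, and with 1 dataset per facility the difference between facilities has no replicate.

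Within a dataset, the members were found in all compartments. Cortex, OM and IM held 168, 79 and 86 members in Hamburg, which was 14.4, 14.8 and 11.9% of the T cells. In Bonn they held 30, 11 and 17 (2.45, 8.53 and 5.52%), and in Aachen 3, 20 and 16 (0.704, 4.32 and 2.32%). In Aachen and Bonn both medullary zones thus exceeded the cortex in this share, whereas in Hamburg it was nearly level in cortex and OM and lowest in IM. Over the facilities, the share of T cells was 5.86 ± 7.47% in cortex, 9.20 ± 5.26% in OM and 6.57 ± 4.86% in IM (mean ± SD, n = 3). The mean of OM and IM exceeded the cortex by 2.03 percentage points (2.62 in Aachen, 4.58 in Bonn and -1.11 in Hamburg), which did not pass the exact permutation test of compartments within facilities (two-sided, p = 0.185, adjusted over both denominators p = 0.370). As a share of all immune cells the difference was -0.73 points (0.442, 0.521 and -3.16; exact permutation p = 0.556, adjusted p = 0.556), and it turned to 0.482 without Hamburg. The smallest p this design allows is 0.037.

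Members held a larger share of Malat1 and a smaller share of ribosomal protein transcripts than the other T cells of their library in 9 of 9 libraries. In Aachen, the median member of cortex, OM and IM devoted 10.2, 12.9 and 9.65% of its UMIs to Malat1, against 6.65, 6.58 and 6.61% in the other T cells. In Bonn the medians were 2.29, 2.03 and 1.14% against 0.776, 0.889 and 0.732%, and in Hamburg 3.13, 3.13 and 3.08% against 0.795, 0.684 and 0.671%. The Malat1 share of the ordinary Aachen T cells was therefore higher than that of the members in Bonn and Hamburg, and "Malat1-high" holds only within a facility. The ratio of the medians was 2.28 over the libraries (median; lowest 1.46, highest 4.59).

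The ribosomal protein share separated the cells further. Its medians in cortex, OM and IM were 15.4, 18.8 and 18.4% in Aachen members against 24.2, 29.3 and 24.4% in the other T cells. In Bonn they were 9.48, 5.15 and 17.5% against 23.5, 23.9 and 24.0%, and in Hamburg 3.8, 3.39 and 3.33% against 19.5, 23.0 and 23.2%. The lowest values were thus those of the facility that held most of the members. The ratio of the medians was 0.404 (0.143 to 0.755), and 392 of the 430 members (91.2%) lay below the tenth percentile of the ribosomal protein share of the other T cells in their library.

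Depth and mitochondrial share also moved with the cluster, and not in the same way at each facility. In Hamburg the median member held 973 UMIs and the median other T cell 3472.5, and 96.7% of the members fell under the tenth percentile of the UMI number of the other T cells. In Bonn the values were 1555.5 and 3274 UMIs (69.0% of members under that percentile). In Aachen the order was the opposite, with 1112 UMIs in members and 973 in the other T cells (12.8%). The mitochondrial share was 2.33% against 0.997% in Hamburg, 3.18% against 2.10% in Bonn and 1.60% against 1.66% in Aachen, and it was higher in the members in 8 of 9 libraries, all but the Aachen cortex with its 3 members. The part of depth and mitochondrial share in the other differences was not tested beyond the comparison over a matched range of depth given next.

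**Figure D1:**
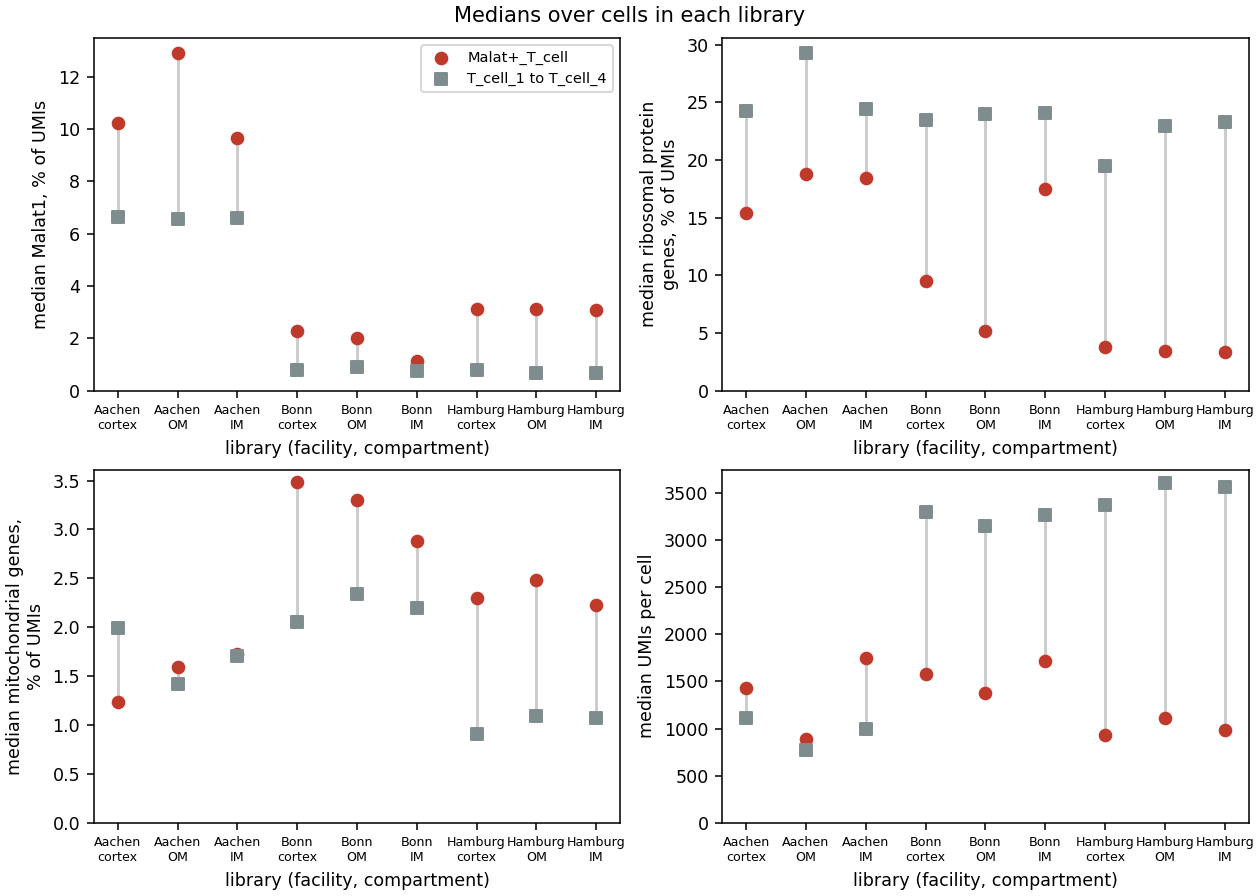
Median over cells of the Malat1 share, the ribosomal protein share, the mitochondrial share (each in % of UMIs) and the UMI number per cell, for the Malat+_T_cell members (circles) and T_cell_1 to T_cell_4 (squares) of each of the 9 libraries; grey lines join the pair of a library. Malat1 was higher and ribosomal protein genes lower in members in all 9 libraries, whereas UMIs per cell were higher in members in the 3 Aachen libraries and lower in the 6 others.

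Thinning a cell at random leaves the expected share of each gene unchanged, so it cannot show the part of depth in these shares. When each cell was thinned to 500 UMIs (6 members and 150 other T cells were shallower and left out), the ratio of the medians was 2.50 for Malat1, 0.374 for ribosomal protein genes and 1.27 for mitochondrial genes. A further comparison matched the range of depth and not its median. Against only those T cells whose UMI number lay between the tenth and ninetieth percentile of the members of the library, the ratios were 2.10 (1.42 to 2.71, above 1 in 9 of 9 libraries), 0.427 (0.190 to 0.749, above 1 in 0) and 1.40 (0.610 to 1.94). The T cells kept were still deeper than the members in Bonn, with medians of 3017, 3056 and 3003 UMIs in cortex, OM and IM against 1582, 1382 and 1713, and shallower in the Aachen IM (967 against 1751). In Hamburg only 56 of 2092 other T cells (2.68%) reached down to that range of UMIs, and their median ribosomal share was 16.4% against 3.57% in the members. Thinned members also showed slightly more genes per cell than thinned T cells (ratio 1.13, 1.03 to 1.17), although the unthinned ratio was 0.734.

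Among the members of a facility, the shares were not tied together in the same way. Across the 39 Aachen members, Spearman's rho between the Malat1 and the ribosomal protein share was -0.488, and across the 58 Bonn members it was -0.374, close to the values of the other T cells of these facilities (-0.486 and -0.438). Across the 333 Hamburg members it was 0.0129, against -0.356 in the other T cells of Hamburg. These are descriptions over cells of the same libraries, and both shares have the cell's UMI number as denominator. The Malat1 share of the Hamburg members ran from 0.313 to 17.9%.

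**Figure D2:**
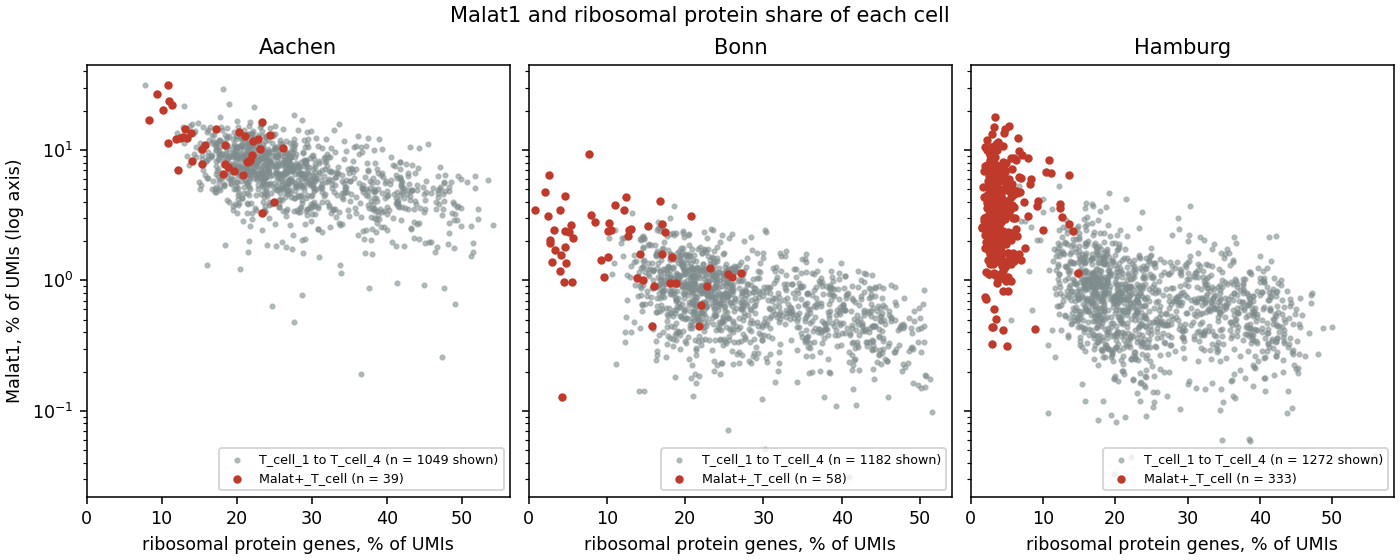
Malat1 share (% of UMIs, log axis) against ribosomal protein share (% of UMIs) of single cells in each facility; red, all Malat+_T_cell members (39, 58 and 333); grey, a random draw of at most 400 cells of each other T cell cluster, without cells that hold no Malat1 UMI. The Hamburg members form a separate band at a median ribosomal share of 3.57%, while those of Aachen overlap the other T cells.

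The label was checked against T cell markers. At least 1 UMI of 10 T cell markers (Cd3e, Cd3d, Cd3g, Trac, Trbc1, Trbc2, Cd247, Lck, Thy1, Cd2) was found in 389 members (90.5%). After thinning to 500 UMIs the share was 78.3%, against 91.2% of the other T cells, 17.1% of B cells and 2.41% of resident macrophages. Whether B cells express some of the 10 genes was not tested. Cd3e alone was seen in 25.5% of thinned members and 36.3% of thinned other T cells, compared with 0.457% of B cells. Pooled over facilities, T cell transcripts were therefore found in more members than B cells or resident macrophages, and in fewer members than cells of the other T cell clusters. By facility, 67.6% of thinned members in Aachen, 82.8% in Bonn and 78.6% in Hamburg held a T cell marker. The other T cells gave 85.2, 95.3 and 92.1%. In Aachen, 0 of 34 thinned members held a T cell marker without a myeloid or B cell marker. A myeloid or B cell marker without a T cell marker was held by 26.5% of them.

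Transcripts of other cell types were also frequent, and the share of members with them was highest in Aachen. A T cell marker together with a myeloid or B cell marker occurred in 203 members (47.2%) and in 20.5% of the other T cells. By facility these were 30 of 39 members in Aachen (76.9%), 17 of 58 in Bonn (29.3%) and 156 of 333 in Hamburg (46.8%). The other T cells of these facilities gave 32.6, 13.6 and 16.9%. In thinned cells, 91.2% of Aachen members held a UMI of 6 resident macrophage markers (21.7% of the other T cells), compared with 15.5% in Bonn (2.06%) and 27.7% in Hamburg (1.53%). Summed over the Aachen members, macrophage markers gave 115 and T cell markers 21.8 UMIs per 10000. The T cell sum is a low estimate, because Trac, Trbc1 and Trbc2 hold no UMI in the Aachen columns. Longer lists of markers were set against reference cells of Aachen as shares of UMIs. The resident macrophage list took 1.498% in members, 0.317% in the other T cells and 4.22% in resident macrophages. The T cell receptor and identity list took 0.446, 0.707 and 0.0519% in the same order. On both lists the Aachen members thus lay between the other T cells and resident macrophages. In Bonn, the 17 members with mixed markers held a median of 5189 UMIs and the 41 with T cell markers alone 1497. The part of doublets and of free RNA in these mixtures was not tested, and no doublet caller was run.

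Summed per library and class and given as CPM, counts per 1000000 UMIs scaled by TMM, 4105 genes were compared in the 8 libraries with at least 10 members (the Aachen cortex with 3 cells was left out). A gene was called higher or lower if its median log2 difference was at least 1 and its sign was the same in every library. By this rule 53 genes were higher in members (1.29% of those tested) and 418 lower (10.2%), around a median difference of -0.06 for all genes. By facility, the TMM-scaled differences of all genes had a median of -1.39 in Aachen, -0.21 in Bonn and 0.05 in Hamburg. A gene at the Aachen centre thus counted as negative there. Under a rule of 1 sign in every library, this works against higher calls and favours lower ones. The split depended on the scaling. With size factors of the DESeq2 type it was 109 higher and 263 lower (median of all genes 0.15), and with library totals alone 212 and 144 (median 0.40). Without the 87 members and 445 other T cells that held at least 2 UMIs of B cell or macrophage markers, 292 genes were higher and 1150 lower among 6503 tested in 5 libraries, 0 of them from Aachen. Leaving out Aachen alone gave 288 and 601 of 4639, and leaving out Hamburg 68 and 222 of 3328.

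Of the nuclear long noncoding RNAs, Malat1 and Neat1 were higher in members. Malat1 lay between 15058 and 136395 CPM in the members of the 8 libraries (median 32969) and between 8778 and 123369 in the other T cells (median 9920), a median log2 difference of 1.05 (0.11 to 1.89). The ranges overlap because of the high Aachen level, yet the members were higher in 8 of 8 libraries. The Aachen gap was narrow after TMM, with differences of 0.14 in OM and 0.11 in IM. As plain shares of summed UMIs it was wider. Malat1 took 12.9% in members and 6.72% in the other T cells of the Aachen OM, and 9.63 and 6.45% in the Aachen IM. Without the Hamburg libraries the median difference was 0.57, below the size that the rule asks for, and it was 1.15 and 1.38 under the other scalings. Neat1, the noncoding scaffold of the paraspeckles, was higher by 1.53 (0.13 to 2.31) with medians of 548 and 143 CPM. Kcnq1ot1, an imprinted antisense RNA that acts on chromatin, had a median difference of 1.97 with 1 library of the opposite sign (-0.34). Of the 18 nuclear long noncoding RNAs listed, 6 could be tested, and 2 were higher (Malat1 and Neat1) and 0 lower. The medians of AY036118 (-1.74, from -4.25 to 1.31), Gm42418 (-1.07) and Snhg12 (-0.73) lay below 0. AY036118 and Gm42418 are annotated at overlapping positions of chromosome 17. Scaled among the members alone, Gm42418 was at 290 and 0 CPM in the Aachen OM and IM, against 13489 to 56221 in Bonn. Gas5, of the same list, has no Aachen UMI, and in Bonn and Hamburg it was lower in 6 of 6 libraries, by a median of -1.01 (-1.19 to -0.41). The list thus did not move as a block, and whether each of its RNAs stays in the nucleus was not checked. In the mouse genome mm10, Malat1 is annotated at chr19:5795690-5802672 and Neat1 at chr19:5824708-5845478, both on the minus strand.

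Genes of chromatin regulation had medians above 0 without reaching the rule. All 24 chromatin regulators tested (of 26 listed) had a median difference above 0, with a list median of 0.81, and 0 were called. By facility the list median was 1.31 in Hamburg, 0.46 in Bonn and -0.70 in Aachen. Tet2, which oxidises methylated cytosine, gave 1.38 (-4.33 to 2.19), Nsd1, a histone methyltransferase, 1.27 (-0.57 to 1.78), and Kmt2c, another histone methyltransferase, 1.05 (-0.70 to 2.06). The low ends are those of the shallow Aachen libraries (Tet2 had 0 CPM in the Bonn OM too), whose members together gave 18261 UMIs in OM and 25873 in IM. As a share of all UMIs, which does not depend on TMM, the list took 0.992% in members and 0.308% in other T cells of Hamburg, 0.644 and 0.343% in Bonn, and 0.249 and 0.209% in Aachen. The order was the same at each facility and the size of the gap was largest in Hamburg. The 25 nuclear speckle and splicing factors tested had a median of 0.38, 20 of them above 0 and 0 called, with Ddx17, an RNA helicase, highest at 0.89.

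Ribosomal protein genes were the most uniform group on the lower side. Of 85 listed genes 81 were tested, 76 were lower and 0 higher, all 81 medians were below 0, and the list median was -1.69, beside -0.06 for all genes. Rplp0, of the ribosomal stalk, was at 685 to 2662 CPM in members (median 1072) and at 5050 to 7194 in the other T cells (median 5899), without overlap and with a median log2 difference of -2.38. Rpl7 and Rps26 followed with -2.19 and -2.10. The 5 genes not called were Rps27l, Rpl23a, Rps15, Rps25 and Rpl7l1; they were named after their values were seen. Summed, ribosomal protein genes took 17.5% of UMIs in Aachen members against 27.7% in the other T cells, 14.5 against 27.9% in Bonn and 4.39 against 25.1% in Hamburg.

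Other lists of abundant cytoplasmic messages also held more lower genes than the 10.2% of all genes tested, a share that depends on the scaling. Nuclear-encoded subunits of the respiratory chain had 22 of 28 genes lower and 0 higher (list median -1.41), for example Cox8a, a subunit of cytochrome c oxidase, with medians of 462 and 1134 CPM. Their counterparts encoded in the mitochondrial genome differed: of 13 tested genes 0 were called, 12 medians lay above 0 and the list median was 0.24. Of 18 actin cytoskeleton genes 8 were lower (median -0.87, and -0.61 and -0.38 under the other scalings), led by the thymosin Tmsb10 at 1177 to 6421 CPM in members (median 3888) and 11748 to 14389 in the other T cells (median 12141). Of 21 abundant cytosolic transcripts 13 were lower (median -1.19), among them Gapdh, the glycolytic dehydrogenase, at -1.19, and Eef1a1, the elongation factor, at -1.37. None of these lists had a gene that was higher.

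**Figure D3:**
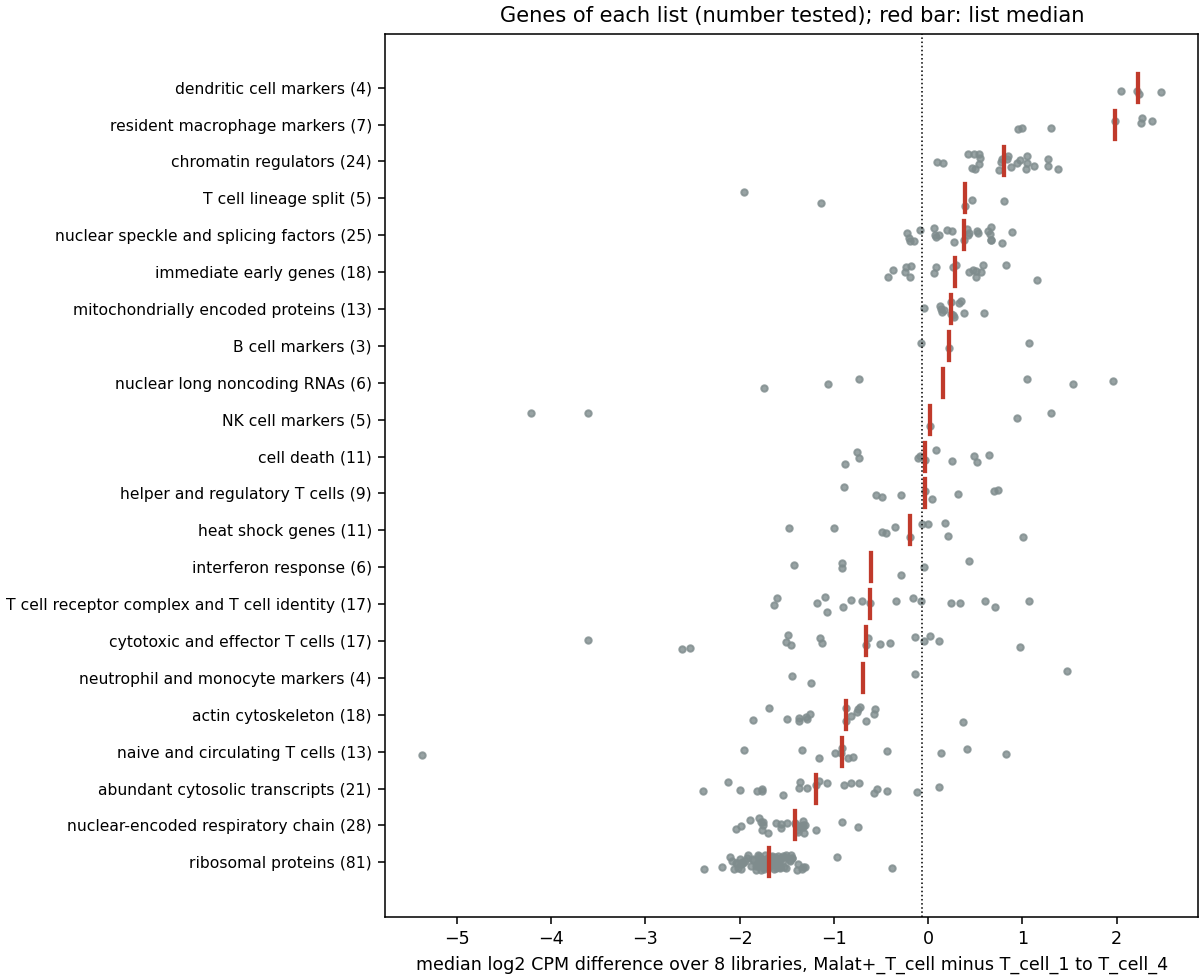
Median log2 CPM difference over 8 libraries between Malat+_T_cell and T_cell_1 to T_cell_4 for each gene (grey points) of each list with at least 3 tested genes, with the list median as a red bar and the median of all 4105 genes (-0.06) as a dotted line; the number of tested genes is in brackets. MHC class II genes (named dendritic cell markers) and macrophage markers lie on the right with list medians of 2.23 and 1.98, ribosomal protein genes on the left with -1.69.

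The genes of T cell identity did not move as a block. The CD3 subunits were lower: Cd3e lay at 280 to 748 CPM in members (median 537) and 837 to 1431 in the other T cells (median 1221), a log2 difference of -1.18 (-1.57 to -0.93). Cd3d (-1.61) and Cd3g (-1.63) likewise did not overlap between the groups. At the other end, Ptprc, which encodes CD45, had medians of 2474 and 1159 CPM and a difference of 1.07, lowest -0.54; the transcription factor Bcl11b (0.61) was also positive at the median. Of 17 tested genes of the list 4 were lower (Thy1, Cd3e, Cd3d and Cd3g) and 0 higher. In Bonn and Hamburg, where the receptor genes were counted, Trbc1 (-1.13) and Trbc2 (-1.62) were lower in 6 of 6 libraries and Trac was not called (-0.45); the Aachen columns hold no UMI for these genes. As a share of UMIs the T cell receptor and identity list was 0.446% in members against 0.707% in Aachen, 0.955 against 1.07% in Bonn, and 1.12 against 0.918% in Hamburg, so its direction differed between facilities.

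The lineage markers were divided among the members. Cd4 UMIs without Cd8a or Cd8b1 were seen in 98 members (22.8%), Cd8 UMIs without Cd4 in 82 (19.1%), both in 3, and neither in 247. For comparison, Cd8 alone was seen in 79.3% of T_cell_2 and Cd4 alone in 26.7% of T_cell_1. The cluster thus held cells with UMIs of either kind. Members with Cd4 alone outnumbered those with Cd8 alone in Hamburg (82 and 64) and Bonn (15 and 13), but not in Aachen (1 and 5). Whether Cd4 and Cd8 are detected equally well was not tested, so these counts do not give the proportion of both lineages. At these depths a cell without a UMI of either may still express 1 of them. Cd8b1, the beta chain of the CD8 receptor, was at 0 to 213 CPM in members and 534 to 1120 in the other T cells (median difference -1.96), while Cd4 had a median difference of 0.80 and 0 CPM in 2 libraries.

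Of 17 cytotoxic and effector genes tested, 5 were lower, 0 higher and 12 not called, where 10.2% of all genes were lower. Ccl5, a chemokine of memory and cytotoxic T cells, was at 759 to 4846 CPM in members (median 1295) and at 5206 to 22538 in the other T cells (median 6748), a median log2 difference of -2.61 (-3.43 to -1.83) with no overlap. Gzma, a granzyme, was at 0 to 52.3 CPM against 137 to 358. Klrd1, Nkg7 and Ctsw were lower too. The list median was -0.66, and it was -0.41 and -0.20 under the other scalings and -0.08 after thinning (10 genes tested). As a share of UMIs, the list took 0.850% in members of Aachen, 0.550% in Bonn and 0.580% in Hamburg. At each facility this lay below T_cell_1 and T_cell_2 and above T_cell_3 and T_cell_4. The share was largest in T_cell_2, at 3.31, 2.40 and 2.32%. Ccl5 likewise had the opposite sign against single clusters. It was 1.66 log2 units higher than in T_cell_3 and 4.84 higher than in T_cell_4, whose Ccl5 levels are low.

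Of the naive and circulating T cell genes 13 were tested and 2 were lower. Dapl1, a gene of naive CD8+ T cells, had 0 of 548070 UMIs in the members of the 8 libraries, whereas the other T cells held 80.8 CPM; with a floor of 3 UMIs over the group it was at least 14.8-fold lower. Ccr7, the lymph node homing receptor, was lower by a median of 1.34 on the log2 scale, with 0 CPM in 2 libraries. Bach2 (0.83) and Foxp1 (0.41) were the highest of the list, and Lef1 (-0.79) was not called. The 9 helper and regulatory T cell genes tested had 0 calls and a median of -0.04, from Tnfrsf18 (-0.89) to Ctla4 (0.70) and Ikzf2 (0.74). Ctla4, an inhibitory receptor, was found at 580 CPM (not TMM-scaled) in Hamburg members against 163 in the other T cells, and at 141 against 50.8 in Bonn. In Aachen the members held 0 of 49072 UMIs, which allows up to 61.1 CPM, so a difference from the 43.3 of the other T cells was not detectable.

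The 12 genes with the largest positive difference were mostly those of antigen presentation and of macrophages: H2-Ab1 (2.47), Apoe (2.38), C1qa (2.27), H2-Aa (2.24), H2-Eb1 (2.22), Cd74 (2.05), Mef2c (2.04), Ctsh (2.04), Bmp2k (1.82), Cybb (1.81), Fchsd2 (1.62) and Ly86 (1.55). Cd74, the invariant chain of MHC class II, lay at 1665 to 38348 CPM in members (median 4570) and at 284 to 11931 in the other T cells (median 1021). The values were highest in Aachen in both groups, and each library was higher in its members (0.88 to 3.22). C1qa, a complement subunit made by macrophages, had medians of 121 and 23.1 CPM. Bmp2k, a kinase of endocytosis, was the only gene among these 12 whose ranges did not overlap, with 90.7 to 146 CPM in members and 24.6 to 36.4 in the other T cells.

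Markers of other cell types were measured as whole lists. All 7 tested resident macrophage markers of 14 had a median above 0 and 3 were higher (Apoe, C1qa and Cd81); the list took 0.0705 to 1.52% of UMIs in the members of the 9 libraries (median 0.122) and 0.0155 to 0.401% in the other T cells (median 0.0319). In resident macrophages themselves it was 4.22% in Aachen, 4.02% in Bonn and 2.96% in Hamburg. Among the dendritic cell markers only the 4 MHC class II genes were abundant enough to be tested and all 4 were higher, while a UMI of Cd209a, Xcr1, Clec9a or Flt3 was found in 1.18% of thinned members. Of 12 B cell markers 3 were tested and 0 called, with Cd79a at 1.07; in Bonn and Hamburg the antibody light chains Igkc (1.90) and Iglc2 (1.90) were higher in 6 of 6 libraries. The NK list had 5 tested genes, 0 higher and 1 lower (Gzma), with a share of 0.0264 to 0.356% in members and 0.0407 to 0.102% in the other T cells. The ILC2 list had 1 tested gene and 0 calls, and the neutrophil and monocyte list 4 tested genes, 0 higher and 1 lower.

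Kidney tubule transcripts were rare and were not tested gene by gene, but their share differed in Hamburg. There the 16 genes took 0.0477% of UMIs in members and 0.00343% in the other T cells, compared with 0.0141 and 0.00987% in Bonn and 0.0204 and 0.00735% in Aachen, where it rests on 10 UMIs. Kap, a proximal tubule gene, was found at 48.8 CPM (not TMM-scaled) in Hamburg members and 0.25 in the other T cells of Hamburg, and at 74.1 and 46.1 in Bonn. The 8 endothelial genes took 0.0509, 0.00518 and 0.00623% in members of Aachen, Bonn and Hamburg against 0.00351, 0.00435 and 0.00314%, and haemoglobin transcripts had 0 of 553008 UMIs in members, which allows up to 5.42 CPM. The part of free RNA from other cells in these values was not tested.

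The T cell and nuclear findings were recomputed in cells that carry at least 1 T cell marker UMI and no marker of B cells, macrophages or dendritic cells, an alternative added after the values were seen. In these cells the median of the ribosomal list was -2.87, of the respiratory chain list -2.42 and of the chromatin regulators 0.74. The median of the macrophage list was 0.05 (3 genes tested), and that of the MHC class II genes was 1.29. The Malat1 difference was 1.25. The low macrophage value follows from the choice of cells, which excludes those with C1q, Csf1r, Adgre1 or Apoe UMIs, whereas the ribosomal and Malat1 differences kept their sign. This choice left 5 libraries and 0 from Aachen; without the Aachen libraries alone, the ribosomal, respiratory chain, chromatin and macrophage lists had medians of -2.18, -1.82, 1.03 and 1.06, and Malat1 differed by 1.42.

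**Figure D4:**
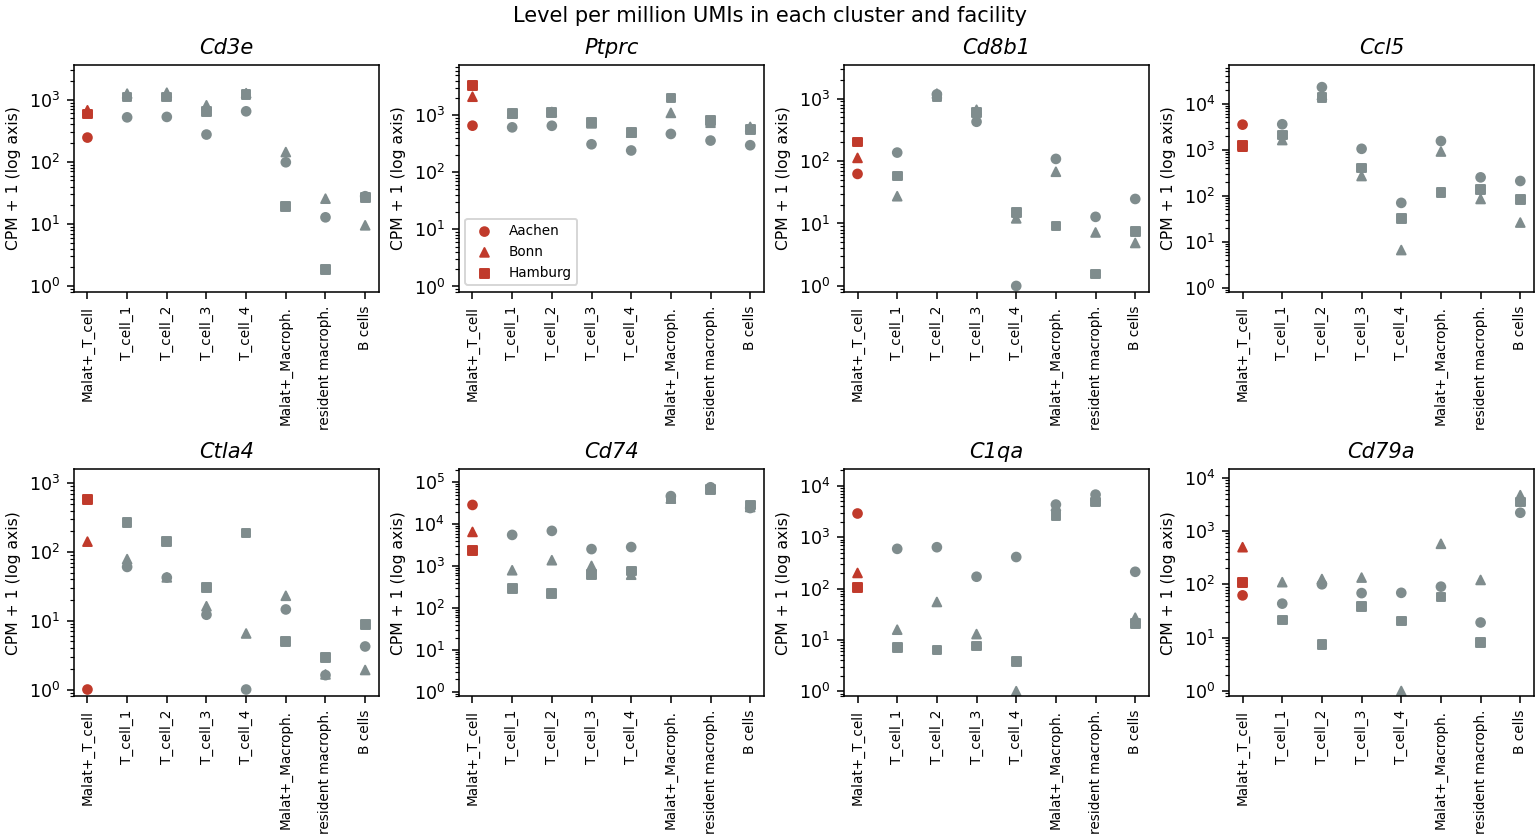
Level in CPM plus 1 (not TMM-scaled, log axis) of 8 genes in the Malat+_T_cell members (red), the 4 other T cell clusters, Malat+_Macrophage, resident macrophages and B cells (grey), with 1 symbol per facility. Cd3e in members lies below all 4 other T cell clusters at each facility and well above resident macrophages, and among the members C1qa and Cd74 lie highest in Aachen.

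In Bonn and Hamburg the differences were ordered by transcript length, a property that the cluster name does not refer to. No such order was seen in Aachen, where few UMIs were counted per gene. The longest annotated transcript (GENCODE M21, mm10) was found for 4104 of the 4105 genes. In the shortest quartile (204 to 2045 nucleotides) the median log2 difference was -0.99, and 295 genes were lower and 6 higher. In the following quartiles it was -0.26, 0.17 and, for 4937 nucleotides and more, 0.61, the last with 10 genes lower and 31 higher. In Aachen the medians of the 4 quartiles were -1.28, -1.32, -1.53 and -1.44, beside -1.39 for all genes, so there the longest genes too were below 0. Across genes, Spearman's rho between length and difference was 0.68, and 0.67 without the ribosomal protein genes. By facility the rho was 0.72 in Hamburg and 0.48 in Bonn, but 0.02 in Aachen. The Aachen members held only 18261 UMIs in OM and 25873 in IM, so the differences of many genes there rest on few UMIs. The Aachen rho therefore cannot show that an order is absent. Genes are not independent replicates, so this is given without a p. Within quartiles of mean level it ran from 0.57 to 0.71, and it was 0.67 after thinning every cell to 500 UMIs and 0.69 in the cells with T cell markers alone.

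Plain shares of UMIs gave the same order of facilities, taken without ribosomal protein genes, mitochondrial genes and Malat1. In Hamburg members, genes of the longest quartile took 31.1% of these UMIs, against 14.6% in the other T cells, and genes of the shortest quartile 21.4% against 43.7%. In Bonn the longest quartile took 23.4 against 15.1% and the shortest 34.7 against 46.0%. In Aachen the values lay close together, with 13.1 against 11.8% and 51.4 against 52.8%, and the ratio of members to other T cells was 1.05 to 1.15 for the longest and 0.943 to 0.976 for the shortest quartile over its 3 libraries. The order of the facilities was that of the ribosomal protein share. The part of RNA integrity, of nuclear against cytoplasmic RNA and of the facility's processing in this pattern was not tested.

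**Figure D5:**
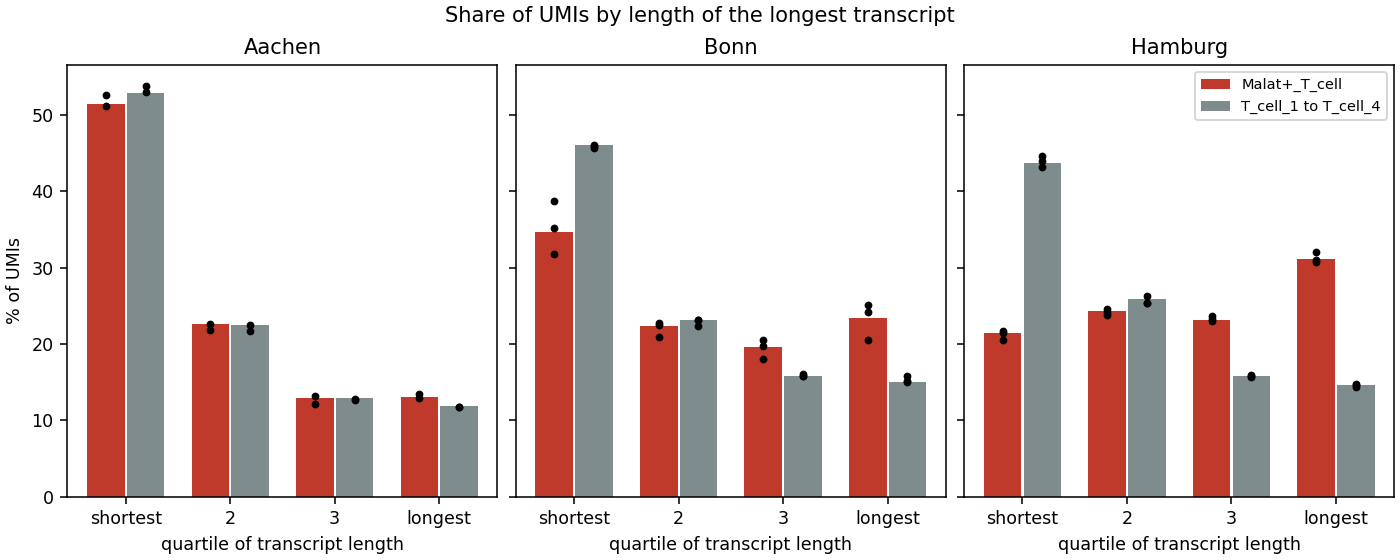
Share of UMIs (%) in genes grouped by quartile of the length of their longest transcript, for Malat+_T_cell members (red) and T_cell_1 to T_cell_4 (grey) of each facility; bars are summed over the libraries of a facility, points are single libraries (without the Aachen cortex with 3 members), and ribosomal protein, mitochondrial and Malat1 UMIs were left out. The longest quartile takes 31.1% in Hamburg members and 14.6% in the other T cells, and 13.1 and 11.8% in Aachen.

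Stress genes gave few calls. The 18 immediate early genes tested had 0 calls and a median of 0.28; Egr1 (1.16) and Fos (0.82), transcription factors induced within minutes of stimulation, were the highest. As a share of UMIs the list was 3.65% in members and 2.39% in other T cells of Hamburg, 1.05 and 0.585% in Bonn, and 2.07 and 1.56% in Aachen. Of 11 heat shock genes 1 was lower (the mitochondrial chaperonin Hspe1) and the median was -0.19, which turned to 0.02 and 0.30 under the other scalings. The 6 interferon response genes tested had 0 calls (median -0.60), as had the 11 cell death genes (median -0.04, and 0.14 and 0.44 under the other scalings).

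The 12 genes with the largest negative difference included, beside Dapl1, Gzma and Ccl5, Pigp (-4.17), Dynlrb1 (-3.47), Pqbp1 (-3.30), Pin4 (-3.25), Tm2d1 (-3.17), Smco4 (-3.08), Mrps18c (-3.02), Smim11 (-2.74) and Hcst (-2.61). Pigp was seen with 10 UMIs and Dynlrb1, a dynein light chain, with 22 in all members of the 8 libraries, so the size of their differences depends on the prior count for zeros. Hcst, the adaptor of the NKG2D receptor, was an abundant gene, at 724 to 1330 CPM in the other T cells and 49.3 to 443 in members, without overlap.

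Across all expressed genes, the cluster was not nearest to the same T cell cluster at each facility. Summed log2 profiles without Malat1 and mitochondrial genes correlated best with T_cell_1 among the T clusters in Aachen (Pearson's r = 0.669 across 3203 genes) and Hamburg (0.651 across 4617), and with T_cell_2 in Bonn (0.767 across 4463). In Aachen the r with Malat+_Macrophage (0.760) and with resident macrophages (0.718) was above that with every T cluster. The r with Malat+_Macrophage was 0.690 in Bonn and 0.631 in Hamburg. By Spearman's rho the members were nearest to Malat+_Macrophage in Aachen (0.694) and also in Hamburg (0.635, against 0.547 for T_cell_1), and to T_cell_2 in Bonn (0.679). In all 3 facilities T_cell_4, the smallest cluster, had the lowest r among the T cell clusters.

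The table holds a second cluster named for Malat1, Malat+_Macrophage with 1043 cells, which was set side by side with resident macrophages (Macrophage_1 to Macrophage_3 and Isg+_Macrophage). Its median Malat1 share was 14.1% in Aachen, 1.85% in Bonn and 3.62% in Hamburg against 10.0, 0.984 and 1.09% in resident macrophages. Its ribosomal protein share was 14.9% against 13.8% in Aachen, 8.68 against 13.3% in Bonn and 2.75 against 11% in Hamburg. By the same rule 23 of 5296 genes were higher (0.434%) and 79 lower (1.49%). Of the 3669 genes tested in both comparisons, 392 were lower in Malat+_T_cell and 55 in Malat+_Macrophage, and 13 were lower in both (3.32% and 23.6% of the lists); 1 gene was higher in both (1.92% of 52 and 5.88% of 17). Across these genes the median differences of both clusters correlated with rho = 0.68 (Pearson's r = 0.63), as a description, since the cells came from the same libraries. The rho with transcript length was likewise 0.67 for the macrophages.

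The compartment effect was tested within the members over the 8 libraries. In the edgeR quasi-likelihood test with the facility as block, 0 of 1559 genes (0%) passed an adjusted p of 0.05 between medulla (mean of OM and IM) and cortex. The other contrasts, of each zone with the cortex and of both zones with each other, also gave 0 calls (0% each). At an unadjusted p under 0.05 there were 25, 26, 39 and 28 genes, and DESeq2 gave 0 adjusted calls and 16, 14, 19 and 12 unadjusted ones. In simulated data of the same libraries the medulla contrast found 65.5% of the 4-fold changes that were set and 5% of the 2-fold ones. The simulation set a dispersion of 0.05. Where real libraries vary more, fewer changes would be found, so these rates do not exclude 4-fold differences. A 2-fold compartment difference would therefore mostly have been missed at this depth.

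The genes with the smallest p are given as values that did not pass. In medulla against cortex, the monocyte and memory T cell gene Ly6c2 had a log2 fold change of -1.54 ± 0.38 (SE; edgeR adjusted p = 0.508), with -1.63 in Bonn and -1.28 in Hamburg; Aachen gives no value without its cortex. Hspb1, a small heat shock protein, was at 2.45 ± 0.77, and the B cell factor Pou2f2 at 2.0 ± 0.68 (edgeR adjusted p = 1 for each). Hspb1 held 0 CPM in every Bonn library and differed by 1.59 in Hamburg. Apoe was at -1.45 ± 0.52, but with the opposite sign when the block was left out (1.22). In IM against cortex, Ly6c2 was at -1.95 ± 0.46 and the Fc receptor for IgM, Fcmr, at 3.01 ± 0.90. In OM against IM, the B cell surface gene Ly6d (-4.03 ± 1.15) and the transcription factor Klf2 (-1.17 ± 0.44) were on the lower side. Cd8a (1.60 ± 0.61) was on the higher side. It differed by -0.03 in Aachen, by 4.80 in Bonn, where the IM held 0 CPM, and by 0.33 in Hamburg. Malat1 itself differed by -0.24 ± 0.23 and Cd3e by -0.21 ± 0.33 between medulla and cortex (edgeR adjusted p = 1 for each).

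The ribosomal protein list had a median log2 fold change of 0.15 between medulla and cortex with 66 of 80 genes above 0, beside -0.04 for all genes tested, and 0 called. The 8 macrophage markers tested were all below 0 (median -0.95) and 7 of 8 B cell markers above 0 (median 0.81), again with 0 called. Without an Aachen cortex these values rest on Bonn and Hamburg, and Apoe, the macrophage gene with the smallest p, differed by -2.96 in Bonn and 0.04 in Hamburg. The T cell receptor and identity list had a median of -0.21, with 7 of 19 above 0.

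In the other T cells of the same 8 libraries, 7 of 9553 genes (0.0733%) passed in medulla against cortex. Whether the compartment effect differs between the members and the other T cells was tested as an interaction, in which 0 of 7692 genes (0%) passed in edgeR. At an unadjusted p under 0.05 there were 163 genes, and DESeq2 gave 0 adjusted and 55 unadjusted calls. More genes could be tested in the other T cells because their libraries are deeper, so the counts of both classes are not comparable.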

How the data were processed

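Reads were aligned by the authors to mm10 in Cell Ranger (10x Genomics); they filtered, integrated and clustered the cells in Seurat, per the labels and the study's methods, and named the clusters. The deposited table holds expected counts of UMIs per cell and gene, not scaled to library size, with the compartment, cluster and facility of each cell. They are whole numbers in Aachen and Bonn, and 0.118% of the nonzero Hamburg values are whole; why was not given in the sources used here. Values were rounded per cell, which took 2.11% of the Hamburg UMIs. Of 20042 barcode sequences, 219 occurred in more than 1 library, 7 of them among the members.

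The members and gene lists were chosen with earlier results of these data known. Counts were summed per library and class (at least 10 members). Differences are medians over libraries of log2 CPM (edgeR 4.0.16, R 4.3.3, filterByExpr, TMM, prior count 2), for genes with at least 20 CPM on average in a class. CPM by library are TMM-scaled; CPM and shares by facility are not. Genes without a UMI in all cells of a facility were left out; 22 listed genes lacked Aachen UMIs and 11 of them were tested in Bonn and Hamburg. The 12 genes with the highest and the 12 with the lowest median, of the same sign in every library, were named, with Malat1, Cd3e and examples from each list by highest and lowest median, and the 3 smallest p per direction where a contrast had no call. Compartments were compared with glmQLFit and glmQLFTest with facility as block and Benjamini-Hochberg adjustment at 0.05; p-values measure the spread between these libraries, which may be technical. The block follows the design, which was run at each facility. Profiles of the members correlated at 0.154 to 0.699 over 7 pairs of libraries of the same facility. Over 21 pairs of different facilities the range was -1 to 0.306. Profiles were centred within each compartment over few libraries, which pushes pairs of different facilities to negative values. This check therefore cannot show that the facility pairs the libraries. DESeq2 1.42.0 and other scalings, filters, comparators and cell choices were alternatives. In simulated data (dispersion 0.05) the description rule recovered 92.5% of 4-fold and 26.5% of 2-fold changes of 200 genes. It made 9 and 15 false calls. Where real libraries vary more than the simulated ones, fewer changes would be found, so these rates may not hold here. Intervals cover counting error only. Lengths came from GENCODE M21. Python 3.11.15 with numpy 2.4.6, pandas 2.3.3, scipy 1.17.1 and matplotlib 3.10.9 was used.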

Additional observations from a re-analysis of the deposited data

Results flagged for a closer look

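Of 52 groups of values examined for a sample far from the others, none had one. In the following values, facilities moved in opposite directions, each with all its libraries on 1 side unless stated; the differences between facilities were not tested. The log2 ratio of UMIs per cell, members over other T cells, was 0.366 in Aachen, -1.06 in Bonn and -1.86 in Hamburg. That of genes per cell was 0.412, -0.446 and -1.03. The log2 ratio of the UMI share of the T cell receptor and identity list was -0.57 in Aachen, -0.127 in Bonn (libraries of both signs) and 0.274 in Hamburg. For the lineage split list (Cd4, Cd8a, Cd8b1 and others) it was -1.79, -0.222 (both signs) and 0.226, and for the helper and regulatory T cell list -0.152, 0.527 and 0.817. The neutrophil and monocyte list ran the other way, with 1.21 in Aachen, -0.283 in Bonn (both signs) and -0.508 in Hamburg. The Aachen ratios of lists come from OM and IM.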

How the results depend on the processing

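The 53 higher and 418 lower of 4105 genes became 109 and 263 with RLE size factors, 212 and 144 without scaling, 468 and 1563 (of 7244 tested) with at least 30 members per library, 292 and 1150 (of 6503) without mixed cells, and 172 and 1163 (of 6101) in cells with T cell markers alone (added after the data were seen). Higher genes were 104 of 1124 against T_cell_3 and 108 of 1046 against T_cell_4 alone. Lower genes were 131 of 927 after thinning, 212 of 2408, 247 of 2322, 148 of 1124 and 70 of 1046 against T_cell_1 to T_cell_4, and 685 of 6816 with every gene of at least 1 count; the number tested changes with the setting. Leaving out a facility or library gave 41 to 288 higher and 222 to 689 lower genes. Ccl5 reversed against T_cell_3 (1.66) and T_cell_4 (4.84), and genes per cell after thinning (1.13). The cause was not tested.

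With every gene of at least 1 count, 1 gene passed in medulla against cortex, 3 in IM against cortex and 2 in OM against IM, all antibody light chain segments; after thinning, Gm42418 passed in OM against cortex (1 gene). Leaving out a facility or library gave 0 to 6 calls for medulla, 0 to 5 for OM and 0 to 12 for IM against cortex, 0 to 0 for OM against IM and 0 to 0 for the interaction; the most came without the Hamburg cortex. Without the facility as replicate block the contrasts kept 0 calls and the interaction gave 2, and Apoe reversed to 1.22. Over left-out facilities and libraries, Hspb1 ran from -0.04 (without the Hamburg cortex) to 2.76, and Apoe from -3.05 (without Hamburg) to 0.052 (without Bonn; 0.05 without its cortex). The share difference in T cells ran from 0.755 to 3.6 points over left-out facilities, and that in all cells from -1.36 to 0.482, reversed without Hamburg. Depth limits the result most in Aachen, whose members hold 49072 UMIs.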
